A study of Mus musculus with 22 samples.

Results

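The comparison of Trim24-/- Rara+/- with wild-type (WT) livers at 5 weeks of age rested on 8 of the 22 arrays in the series, 4 per genotype, picked by their genotype and age labels with no measured value used. The series profiled mouse liver on 1-colour oligonucleotide arrays to follow the loss of Trim24, alone or with 1 Rara allele also removed, and each array carried RNA from 1 numbered mouse. Mice heterozygous for both genes, on a mixed background of 60% C57BL/6 and 40% 129/Sv, were intercrossed to give WT, Trim24-/- and Trim24-/- Rara+/- offspring, with Trim24 inactivated by gene disruption. The Trim24-/- Rara+/- animals thus had no intact Trim24 allele and 1 intact Rara allele, and WT animals had both genes intact. The 4 Trim24-/- livers of the same age, and 5 WT and 5 Trim24-/- livers at 14 weeks, were used for reference. No group had 1 Rara allele and intact Trim24, so an effect of the Rara allele by itself and an effect on what loss of Trim24 changes cannot be told apart. The question was which changes from WT remain once a Rara allele is removed from Trim24-null liver.

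Trim24 is a nuclear co-regulator of the tripartite motif family that binds the ligand-dependent surface of nuclear receptors, among them retinoic acid receptor alpha, the product of Rara. Retinoic acid receptors pair with retinoid X receptors, sit on repeated half-sites in DNA, and exchange corepressors for coactivators when retinoic acid arrives. In liver they act on vitamin A storage and on lipid and bile acid metabolism, and the same cells answer interferon through Stat and Irf factors that switch on antiviral and antigen-presentation genes.

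The promoters of 4 genes that rose in Trim24-/- Rara+/- livers (values follow) are printed because Obp2a and Bmyc are neighbours that rose together, while C6 and Zfp445 lie on other chromosomes. Each is the 250 bases before the start of transcription in RefSeq (GRCm38.p6), read 5′ to 3′ on the gene's strand. Capitals mark nuclear receptor half-sites, searched on both strands: AGGTCA (reading TGACCT on the opposite strand), then AGTTCA (reading TGAACT), then GGGTCA (reading TGACCC) and lastly GGTTCA (reading TGAACC). The C6 promoter is chr15:4726960-4727209 (plus strand), that of Zfp445 chr9:122866007-122866256 (minus strand), that of Obp2a chr2:25699824-25700073 (plus strand) and that of Bmyc chr2:25706629-25706878 (plus strand).
C6: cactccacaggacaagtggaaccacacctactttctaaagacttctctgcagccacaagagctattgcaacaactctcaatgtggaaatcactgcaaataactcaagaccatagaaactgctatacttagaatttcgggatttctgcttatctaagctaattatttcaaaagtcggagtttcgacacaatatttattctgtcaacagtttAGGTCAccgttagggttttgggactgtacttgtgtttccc
Zfp445: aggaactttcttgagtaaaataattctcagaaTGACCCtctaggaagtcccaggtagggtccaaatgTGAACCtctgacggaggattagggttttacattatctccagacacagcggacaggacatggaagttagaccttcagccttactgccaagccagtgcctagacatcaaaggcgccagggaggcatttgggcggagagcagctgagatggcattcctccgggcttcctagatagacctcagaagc
Obp2a: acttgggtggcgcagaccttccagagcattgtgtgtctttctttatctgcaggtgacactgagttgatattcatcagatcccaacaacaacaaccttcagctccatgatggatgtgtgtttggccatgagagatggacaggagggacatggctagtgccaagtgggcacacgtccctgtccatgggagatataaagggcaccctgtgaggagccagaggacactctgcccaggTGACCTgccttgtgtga
Bmyc: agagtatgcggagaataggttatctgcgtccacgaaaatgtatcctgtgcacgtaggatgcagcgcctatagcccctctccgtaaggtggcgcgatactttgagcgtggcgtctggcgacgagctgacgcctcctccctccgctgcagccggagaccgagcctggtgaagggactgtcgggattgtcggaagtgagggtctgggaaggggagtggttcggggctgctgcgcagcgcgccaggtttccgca
The C6 promoter held 1 half-site, Zfp445 2, Obp2a 1 and Bmyc 0. Promoters of 6 called genes were counted, 2 of them for Acyp1, and Mbd1, Cfap53, Cyp7b1 and Cyp2u1 were not included. Of these 7 promoters, 6 held at least 1 half-site and 0 held a direct repeat of half-sites with 0 to 5 bases between them. Of 32851 promoters scanned the same way, 38.6% held a half-site and 0.706% a direct repeat. The starts of Obp2a and Bmyc are 6805 bases apart.

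The deposited values had been scaled, with a trimmed mean of about 100 on every array, so overall signal was alike by construction. Median signals were 14.09 to 16.04 in WT and 12.62 to 16.03 in Trim24-/- Rara+/-. Correlations of log2 levels between pairs of arrays, over 8179 genes with a mean log2 level above 6, were 0.979 to 0.992 within Trim24-/- Rara+/- and 0.950 to 0.976 within WT. WT animal 90 stood apart, at 0.953 or less with the other WT arrays and 0.979 with Trim24-/- animal 6. Trim24-/- Rara+/- animal 73 was the least like its group, at 0.979 to 0.980, and animals 54, 66 and 82 were at 0.987 to 0.992 with each other. The 3'/5' signal ratio of Actb was 1.67 to 2.23 in WT and 1.77 to 2.11 in Trim24-/- Rara+/-. The 11 measured hepatocyte markers were bright on every array, with a mean log2 level of 12.48 to 12.78 in WT and 12.31 to 12.67 in Trim24-/- Rara+/-. The labels give no sex; Xist read 978 to 1368 in WT and 948 to 1066 in Trim24-/- Rara+/-, and the Y-linked Eif2s3y read 6.58 or less on these 8 arrays.

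Few genes separated Trim24-/- Rara+/- from WT livers: 9 rose, Mbd1, Cyp7b1, Cfap53, C6, Zfp445, Cyp4v3, Cyp2u1, Obp2a and Bmyc, and 1 fell, Acyp1. These 10 of 18194 genes, or 0.0550%, passed limma's test at a Benjamini-Hochberg adjusted p under 0.05, which is what "called" means throughout. The test used log2(signal + 16), so fold changes of dim genes are understated, and a signal near 16 lies at the level of the pseudocount. At an unadjusted p under 0.05, 3.11% of genes were higher and 4.33% lower. Counts against WT at that p, given below for lists and neighbours, are to be read beside these shares. In 840 genes, 4.62% of all, the 4 arrays of each genotype did not overlap, 361 of them higher and 479 lower in Trim24-/- Rara+/-. The median log2 change over all genes was -0.02, with -0.35 and 0.32 as the 5th and 95th percentiles. The 95% interval of the change lay within 1 log2 unit of 0 for 96.2% of genes, while 68 genes had estimates of at least 2-fold, 56 higher and 12 lower. The Trim24-/- livers, set against the same 4 WT arrays in the same fit, gave 109 called genes (0.599%), and Trim24-/- Rara+/- set directly against Trim24-/- gave 26 (0.143%). The first of those comparisons shares its WT arrays with the present one, so its values are given side by side only. The count of 10 ranged from 6 to 22 when 1 of the 12 arrays in the fit was left out: 6 without WT animal 45, Trim24-/- animal 8, or Trim24-/- Rara+/- animal 54 or 66, 21 without Trim24-/- animal 37 and 22 without Trim24-/- animal 6.

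**Figure D1:**
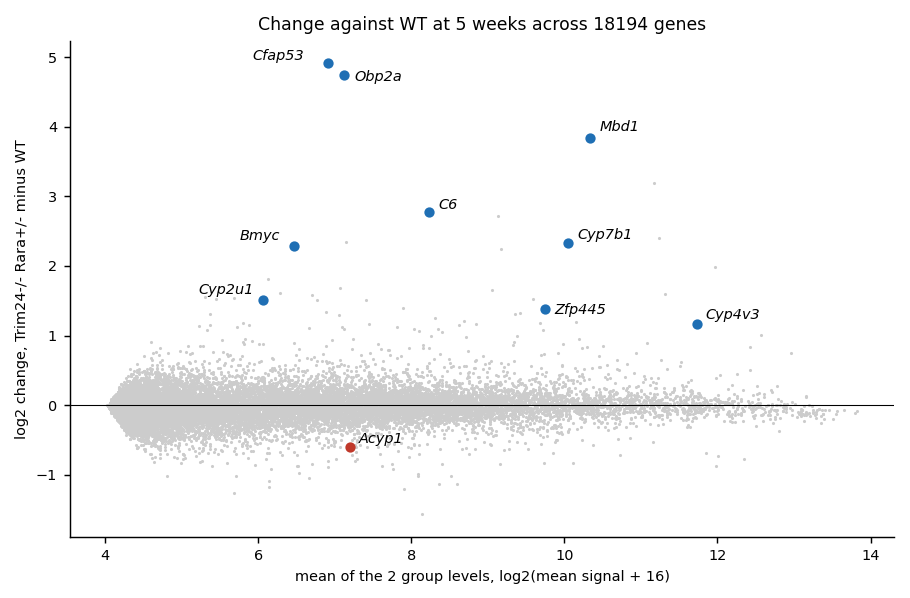
Log2 change of Trim24-/- Rara+/- against WT at 5 weeks (y axis) plotted against the mean of the 2 group levels, log2(mean signal + 16) (x axis), for 18194 genes; called genes are named, in blue where higher and red where lower, and all others are grey. The 9 called rises run from 1.16 for Cyp4v3 to 4.91 for Cfap53, and the called fall, Acyp1, is at -0.60.

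Mbd1 and Zfp445, whose proteins act on silenced DNA, both rose. Mbd1, a methyl-CpG-binding repressor, read 264, 284, 424 and 318 in WT and 5578, 5187, 2823 and 6135 in Trim24-/- Rara+/- livers. Every Trim24-/- Rara+/- array exceeded every WT array, and animal 73 was the lowest of its group. Mbd1 rose by 3.83 ± 0.22 (SE, n = 4 and 4) on the log2 scale, or 14.2-fold (limma, adjusted p = 6.91e-06), and all 5 of its probe sets were higher, by 3.33 to 4.59. In Trim24-/- livers it read 2599, 3134, 2796 and 3518, a change of 3.17 from WT, and the direct difference between the mutants was 0.66 ± 0.22 (adjusted p = 0.259). Zfp445, a zinc finger protein that keeps genomic imprints, read 556, 479.7, 484 and 551 in WT and 1407, 1271, 1385 and 1447 in Trim24-/- Rara+/- livers. The groups were far apart relative to their spread, and Zfp445 rose by 1.39 ± 0.13 (adjusted p = 3.51e-04), with 1.06 and 1.21 from its 2 other probe sets. In Trim24-/- livers Zfp445 read 987 to 1526, also above every WT array, with no call between the mutants.

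Among 18 measured genes for methyl-CpG-binding and zinc finger silencing factors, Mbd1 and Zfp445 were the 2 called, 3 were higher and 1 lower at an unadjusted p under 0.05, and the median was 0.11. Of all genes, 0.0550% were called, and 3.11% were higher and 4.33% lower at that p. Rex2, a KRAB zinc finger gene, read 0.691 to 1.87 in WT and 7.95 to 12.1 in Trim24-/- Rara+/-, all below 16 (log2 change 0.60, adjusted p = 0.108 in limma), and was called without Trim24-/- animal 6. Dnmt3b, a de novo DNA methyltransferase, had an estimate of -0.42 (unadjusted p = 0.0272, adjusted p = 0.593 in limma), with overlapping arrays.

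Some called genes were neighbours of each other. Cfap53, which encodes a protein of motile cilia and centrioles, is the next measured gene after Mbd1 in the RefSeq order, and read 5.94, 3.09, 4.29 and 5.77 in WT against 532, 1269, 331 and 607 in Trim24-/- Rara+/- livers. All 4 WT arrays were below the pseudocount and all 4 Trim24-/- Rara+/- arrays were clearly measured, so the rise of 4.91 ± 0.43 (limma, adjusted p = 2.63e-04) depends on that constant, at 3.30 with a pseudocount of 64 and 6.75 with 1. In Trim24-/- livers Cfap53 read 353, 981, 195 and 424. The other flanks of the pair had small estimates, 0.22 for Cxxc1, a CpG-binding protein, and 0.23 for Myo5b, a myosin motor, neither called. Among the 10 measured genes on each side of Mbd1, only Cfap53 was called, and 5 were higher and 1 lower at an unadjusted p under 0.05, Cfap53 included.

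Obp2a, an odorant-binding lipocalin, and Bmyc, a Myc family gene that lacks the DNA-binding end, formed the other pair. Obp2a read 5.57, 9.29, 13.1 and 8.63 in WT, all below the pseudocount, and 507, 596, 1488 and 399.7 in Trim24-/- Rara+/- livers. Bmyc read 14.5, 31.7, 15.96 and 31.8 and 156, 196, 263 and 109. In both genes animal 73 was the highest of the Trim24-/- Rara+/- animals, animal 82 the lowest, and no array overlapped with WT. Obp2a rose by 4.74 ± 0.71 (limma, adjusted p = 0.0336) and Bmyc by 2.29 ± 0.34 (adjusted p = 0.0336). Trim24-/- livers read 465.6, 5285, 686 and 257 for Obp2a and 102, 375, 146 and 134 for Bmyc, with animal 6 highest in each. The direct differences between the mutants were -0.32 ± 0.71 and 0.05 ± 0.34, neither called. The lipocalin genes on the flanks, Lcn5 (-0.03) and Lcn3 (-0.30), were dim and not called, and of 9 measured genes in the olfactory lipocalin list only Obp2a and Bmyc were. Leaving out any 1 WT or Trim24-/- Rara+/- array, or Trim24-/- animal 1 or 8, ended the call of Obp2a (adjusted p = 0.050 to 0.161). For Bmyc the call ended without any 1 WT array, Trim24-/- animal 8, or Trim24-/- Rara+/- animal 54, 66 or 73 (adjusted p = 0.0583 to 0.186).

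Around Zfp445, the nearest genes Tcaim (0.51) and Zkscan7 (0.48) and also 1110059G10Rik (0.55), were higher at an unadjusted p under 0.05, and none of its 20 neighbours was called. None of the 20 neighbours of Trim24 was called, where Zc3hav1l (0.46) and Zc3hav1 (-0.36) had an unadjusted p under 0.05. None of the 20 neighbours of Rara was called or had an unadjusted p under 0.05, with estimates from -0.16 to 0.50.

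**Figure D2:**
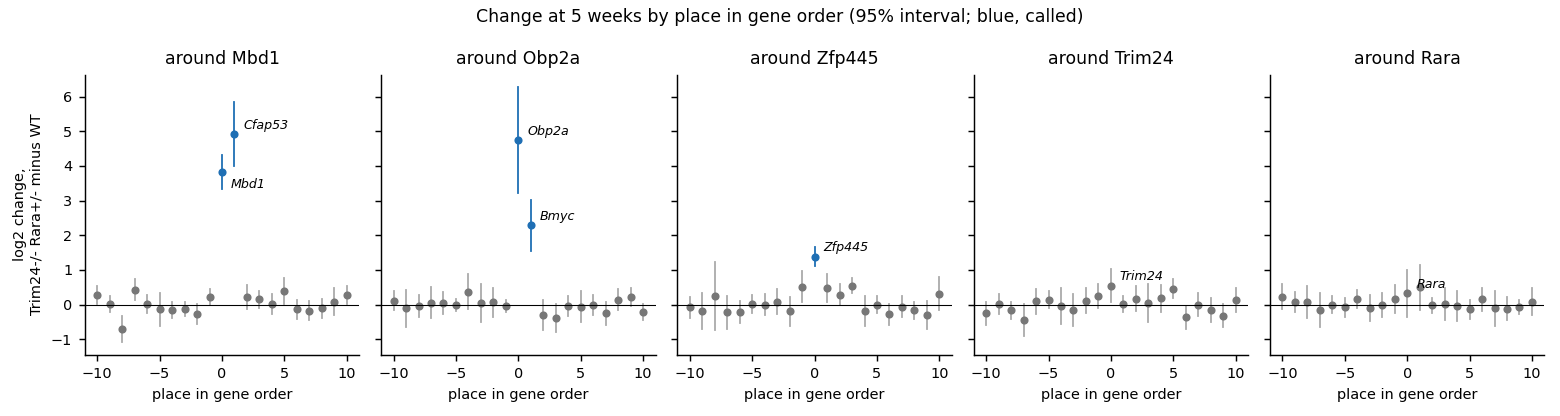
Log2 change of Trim24-/- Rara+/- against WT at 5 weeks (y axis, points with 95% intervals) by place in gene order around Mbd1, Obp2a, Zfp445, Trim24 and Rara (x axis, in measured genes, with the named gene at 0); blue marks called genes. Mbd1 with Cfap53 and Obp2a with Bmyc are called side by side, and no neighbour of Zfp445, Trim24 or Rara is.

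Of the called genes for metabolic enzymes, Cyp7b1 changed most. It encodes the oxysterol 7-alpha-hydroxylase of the acidic route to bile acids, and read 471, 408, 484 and 462 in WT and 2382, 2709, 2068 and 2299 in Trim24-/- Rara+/- livers. The groups did not overlap, with little spread in either, and Cyp7b1 rose by 2.33 ± 0.18 (limma, adjusted p = 1.13e-04), or 5.03-fold. In Trim24-/- livers it read 2499, 3077, 2529 and 1499, and the direct difference between the mutants was 0.02 ± 0.18 (95% interval -0.37 to 0.41). Another of its probe sets gave 2.36, and the last, with mean signals of 3.84 and 2.53, gave -0.10. Of 16 genes of bile acid and oxysterol synthesis it was the only one called, with a list median of 0.04. Ch25h, cholesterol 25-hydroxylase, had an estimate of 0.39 and Baat, the bile acid conjugating enzyme, -0.23, with unadjusted p of 0.0385 and 0.0412 and neither called in limma.

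Cyp4v3 and Cyp2u1, cytochrome P450 enzymes that hydroxylate fatty acids, also rose. Cyp4v3, an omega-hydroxylase, read 2052, 2517, 2482 and 1979 in WT and 4988, 5077, 4942 and 5187 in Trim24-/- Rara+/-, where the 4 arrays lay close together. It rose by 1.16 ± 0.12 (limma, adjusted p = 0.00116), and its other probe set gave 1.30. In Trim24-/- livers Cyp4v3 read 4022 to 5411, also above every WT array, with no call between the mutants. Cyp2u1, which hydroxylates long-chain fatty acids, read 25.3, 23.8, 22.8 and 22.04 in WT, 93.3, 80.9, 104 and 111 in Trim24-/- Rara+/- and 242, 261, 257 and 104 in Trim24-/- livers. The Trim24-/- Rara+/- arrays lay above WT and, apart from Trim24-/- animal 37, below the Trim24-/- arrays. Cyp2u1 rose by 1.51 ± 0.22 against WT (adjusted p = 0.0336), its direct difference from Trim24-/- was -0.96 ± 0.22 (adjusted p = 0.102), and its other, dimmer probe set gave 0.22. Leaving out any 1 WT or Trim24-/- Rara+/- array, or Trim24-/- animal 1 or 8, ended the call of Cyp2u1 (adjusted p = 0.050 to 0.121). Of 28 xenobiotic and other P450 genes, these 2 were called, and 6 were higher and 0 lower at an unadjusted p under 0.05, with a median of 0.09. The shares over all genes were 0.0550% called, and 3.11% higher and 4.33% lower at that p. Cyp2c38, an arachidonic acid epoxygenase, read 1303 to 1756 in WT and 2471 to 3643 in Trim24-/- Rara+/- (log2 change 0.90, adjusted p = 0.255).

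C6, a pore-forming component of terminal complement, read 75.0, 69.2, 71.8 and 201 in WT and 777, 814, 651 and 712 in Trim24-/- Rara+/- livers. The highest WT value came from animal 90, and even so the groups did not overlap. C6 rose by 2.77 ± 0.25 (limma, adjusted p = 2.63e-04), and by 3.10 when animal 90 was left out. Trim24-/- livers read 819, 847, 719 and 694, a direct difference of -0.06 ± 0.25. No other of the 8 measured terminal complement genes was called, and the list median was 0.02. Hc, which encodes C5, had an estimate of 0.09 and C8g of -0.05. Both C6 and Cyp7b1 belong to the male-biased liver list and were the 2 called of its 15 measured members. At an unadjusted p under 0.05, 5 were higher and 0 lower. Over all genes 0.0550% were called, and 3.11% were higher and 4.33% lower at that p. The male-biased list had a median of 0.40. Leaving out WT animal 2 made that median 0.74, and WT animal 44 made it 0.24; it was 0.75 and 0.21 with pseudocounts of 1 and 64. Cyp2d9, a male-biased steroid hydroxylase, read 3432, 772, 2208 and 2096 in WT and 7848, 6932, 7129 and 7904 in Trim24-/- Rara+/- (adjusted p = 0.0669). Its arrays did not overlap, but WT animal 44 was well below the other WT animals, and Cyp2d9 was called without WT animal 2 or 44. Elovl3, a male-biased fatty acid elongase, averaged 77.6 ± 23.6 in WT, 183 ± 11.3 in Trim24-/- Rara+/- and 72.2 ± 21.8 in Trim24-/- (SD, n = 4; change from WT 1.13, adjusted p = 0.106), and was called without Trim24-/- animal 6.

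Acyp1, an acylphosphatase, was the only called fall. It read 174, 157, 152 and 175 in WT and 94.2, 103, 111 and 103 in Trim24-/- Rara+/-, with no overlap, and fell by 0.60 on the log2 scale (SE 0.09, limma, adjusted p = 0.0480). In Trim24-/- livers it read 100.9 to 121, also below every WT array, with no call in the direct test. The 2 other probe sets of Acyp1 gave -0.14 and -0.29 against WT, neither called. The call ended when any 1 WT or Trim24-/- Rara+/- array, or Trim24-/- animal 1 or 8, was left out (adjusted p = 0.0632 to 0.196). Acyp1 was the last gene inside the threshold, and Olfm1, an olfactomedin family gene, was the first outside, at 0.90 with adjusted p = 0.0544.

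**Figure D3:**
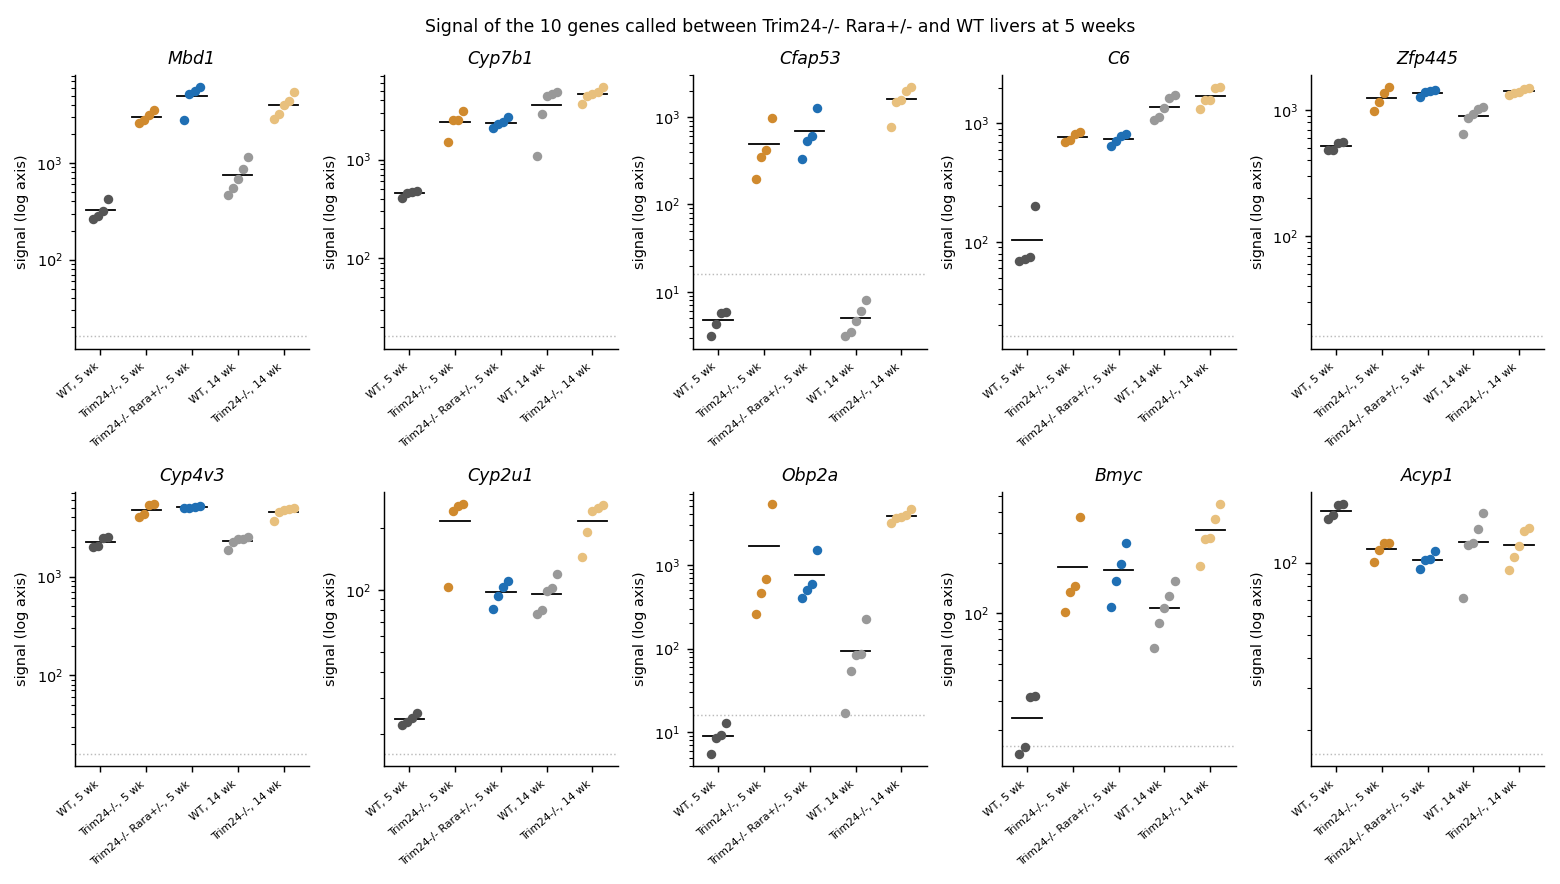
Signal of the 10 called genes (log y axis) on each array of the 3 genotypes at 5 weeks and the 2 at 14 weeks (x axis); points are animals, black bars group means, and the dotted line is the pseudocount of 16. At 5 weeks no Trim24-/- Rara+/- array overlaps a WT array for any of the 10. The WT mean at 14 weeks is above the WT mean at 5 weeks for genes that include Cyp7b1, C6, Mbd1 and Obp2a.

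No gene of the retinoid pathway was called, nor was either targeted gene. Trim24 itself read 459, 290.1, 191 and 327 in WT and 461, 468, 473 and 399.8 in Trim24-/- Rara+/- livers, overlapping, with an estimate of 0.55 ± 0.22 (limma, adjusted p = 0.593). Rara was near or below the pseudocount on most arrays, at 2.74, 27.0, 16.4 and 2.93 and 19.5, 31.6, 13.3 and 8.57 (estimate 0.32 ± 0.31, adjusted p = 0.883). No source used here says where these probes lie relative to the disrupted parts, so neither gene checks the genotype. Of 25 measured retinoic acid receptors, carriers and targets, none was called, 3 were higher and 2 lower at an unadjusted p under 0.05, and the median was 0.07. Among receptors, Rxra (0.04), the main liver retinoid X receptor, and Rarb (0.16), a classical target, were not called, and Rxrg, at 25.7 to 53.03 in WT and 12.1 to 31.4 in Trim24-/- Rara+/-, had an estimate of -0.58 (adjusted p = 0.439).

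Retinoid enzymes gave mixed values. Cyp26a1, the retinoic acid hydroxylase and a direct target, had an estimate of 0.00 ± 0.41 (95% interval -0.89 to 0.90). Dhrs3, a retinaldehyde reductase induced by retinoic acid, read 827, 776, 687 and 815 in WT and 546, 617, 612.9 and 549 in Trim24-/- Rara+/-, without overlap, and 662 to 872 in Trim24-/- livers. Its estimates were -0.41 against WT and -0.38 against Trim24-/-, neither called in limma (adjusted p = 0.332 and 0.189). Lrat, which esterifies vitamin A in stellate cells, had 0.57, and Cebpb, a hepatocyte transcription factor, 0.46, with overlapping arrays. Of 11 Trim24 family members and partners none was called, and the median was 0.00.

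Genes of the interferon response gave no call against WT. Of 46 measured interferon-stimulated genes none was called, 1 was higher and 0 lower at an unadjusted p under 0.05, and the median log2 change was 0.10, beside -0.02 over all genes. In the Trim24-/- livers 19 of the 46 were called higher against the same WT arrays, with a median of 1.15. The mean log2 level of the list per array was 6.83 to 7.15 in WT, 6.90 to 7.44 in Trim24-/- Rara+/- and 7.80 to 8.88 in Trim24-/- livers, so the Trim24-/- Rara+/- arrays overlapped WT and none reached Trim24-/-. Trim24-/- Rara+/- animal 73 was highest of its group, at 7.44 against 6.90 to 6.96 for the other 3, and the median change was -0.04 without it and 0.01 without WT animal 45. The 95% interval of the change lay below 1 for 38 of the 46 genes, where 97.8% of all genes had such an interval.

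Ifi27, an interferon-induced mitochondrial protein, was the member with an unadjusted p under 0.05. It read 550.1, 489, 595 and 546 in WT, 939.6, 1035, 2104 and 908 in Trim24-/- Rara+/- and 3644, 2009.5, 3109.7 and 1355 in Trim24-/- livers, without overlap between Trim24-/- Rara+/- and WT. Its change was 1.08 ± 0.31 (95% interval 0.42 to 1.74, limma, adjusted p = 0.339), which is not a call. Oas1a, which makes the activator of RNase L, read 106, 105, 70.2 and 94.1 in WT, 97.3, 96.4, 224 and 92.1 in Trim24-/- Rara+/- and 785, 369.5, 453 and 285 in Trim24-/-, so animal 73 was above WT and the other 3 within it. Rtp4, a receptor chaperone, read 483, 336, 274 and 496 in WT, 226, 282, 615.9 and 240.4 in Trim24-/- Rara+/- and 1937, 1273, 1567 and 901 in Trim24-/-, with animal 73 above WT and animals 54 and 82 below it. Its change from WT was -0.29 (95% interval -0.97 to 0.39).

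The interferon-inducible GTPases, which attack membranes of intracellular pathogens, also gave no call. None of 9 measured members was called or had an unadjusted p under 0.05, and the median was 0.06, against 1.45 with 7 called in Trim24-/-. The GTPase median was -0.01 without Trim24-/- Rara+/- animal 73 and 0.12 without animal 66. Gbp6 read 138, 113, 86.2 and 110.4 in WT and 116, 120.1, 188 and 108 in Trim24-/- Rara+/- (change 0.21, 95% interval -0.39 to 0.80). Igtp read 911, 532, 724 and 884 and 578, 583, 634 and 586 (change -0.32, 95% interval -0.78 to 0.14), with Trim24-/- Rara+/- inside the WT range. Of 12 genes of MHC class I and the immunoproteasome none was called. At an unadjusted p under 0.05, 2 were higher and 0 lower, where 3.11% of all genes were higher. The median was -0.04, and all 12 intervals lay below 1. Psmb9, an inducible proteasome subunit, read 129 to 170.1 in WT, 174 to 281 in Trim24-/- Rara+/- and 296 to 499 in Trim24-/- (change from WT 0.51, adjusted p = 0.465 in limma), and H2-D1, a class I heavy chain, had 0.29 (adjusted p = 0.593). Tap1, the peptide transporter, had -0.11.

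**Figure D4:**
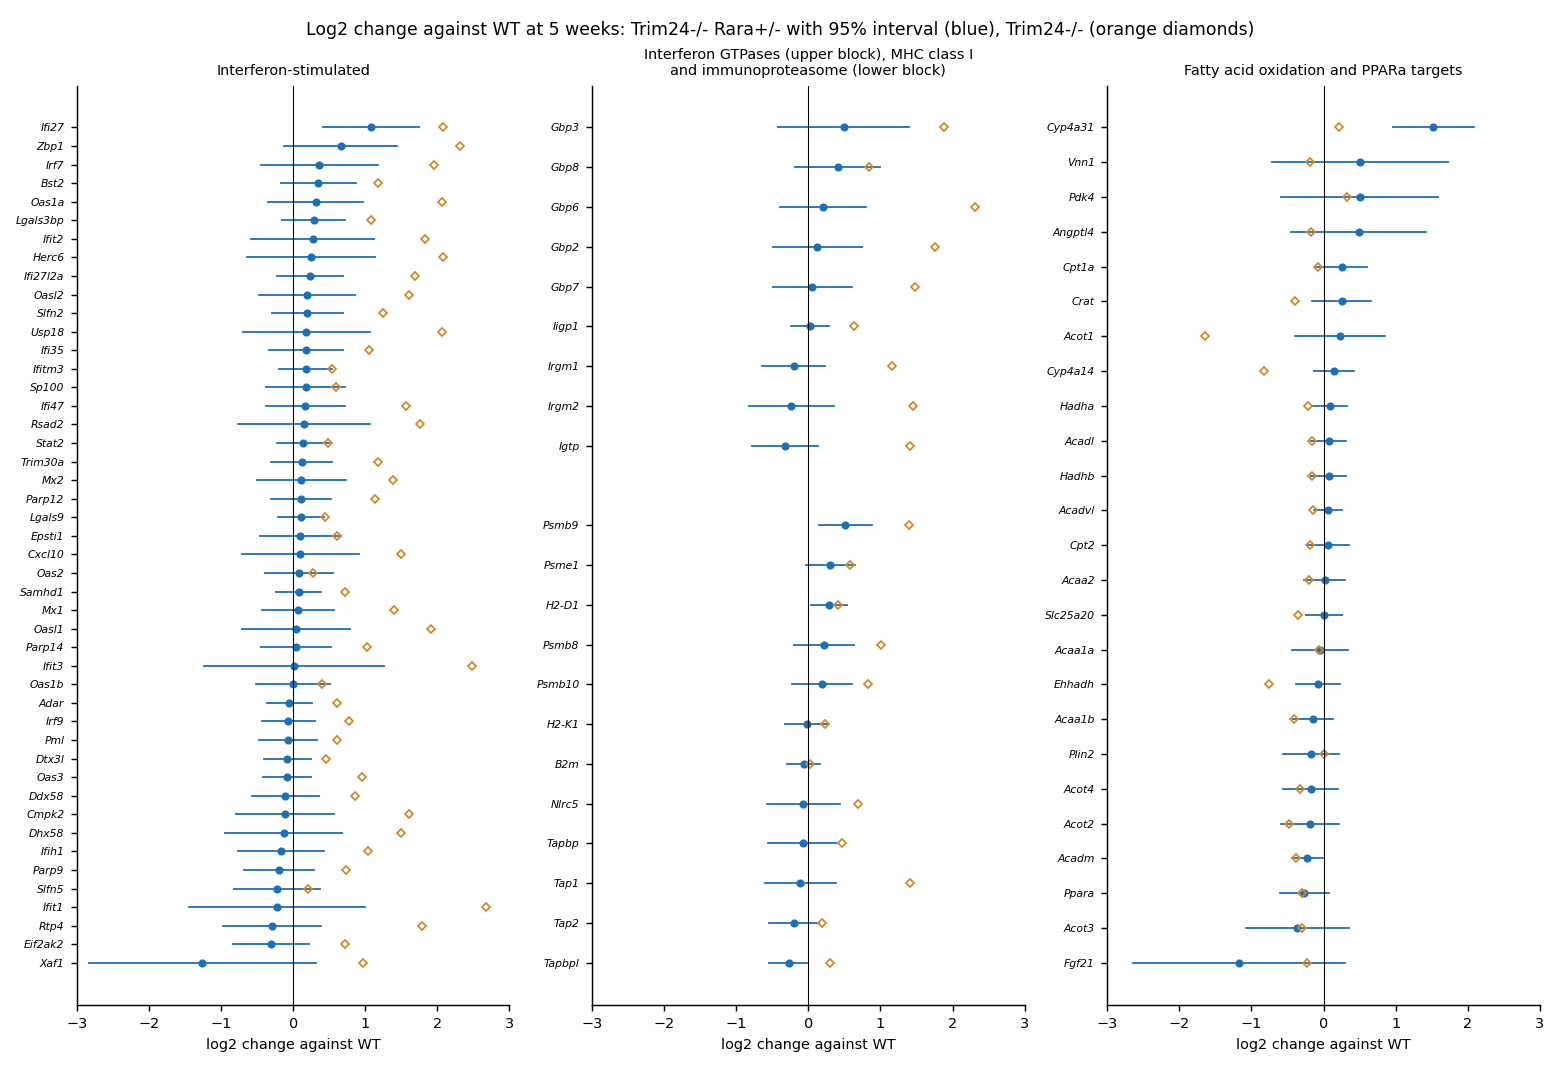
Log2 change against WT at 5 weeks (x axis) of each measured gene (y axis) in the interferon-stimulated, interferon GTPase, MHC class I and immunoproteasome, and fatty acid oxidation lists; blue points with bars are Trim24-/- Rara+/- with 95% intervals and open orange diamonds are Trim24-/- estimates against the same WT arrays. The list medians of the interferon-stimulated genes are 0.10 and 1.15, and Cyp4a31 is the blue point farthest right in the fatty acid list, at 1.52.

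The direct test between the mutants showed where the 2 genotypes differ. Of the 26 genes called, 7 were higher and 19 lower in Trim24-/- Rara+/- than in Trim24-/- livers. Among interferon-stimulated genes 4 of 46 were called lower, namely Ifi27l2a (-1.46 ± 0.21), Oas3 (-1.05 ± 0.15), Rtp4 (-2.07 ± 0.31) and Oas1a (-1.76 ± 0.30), and 40 of 46 were lower at an unadjusted p under 0.05, against 7.15% of all genes. Of 9 GTPases, Igtp, Gbp6, Irgm1 and Irgm2 were called lower (limma, adjusted p = 0.0193 to 0.0383), and the list median was -1.43. Cell type markers differed in the same direct comparison, without a call. In it 14 of 15 T and NK cell estimates were negative, with 5 lower at an unadjusted p under 0.05. All 16 endothelial estimates were positive, with 6 higher. Over all genes 47.3% of estimates were positive, and 789 of 18194 were higher at that p. Of the 15 T and NK cell markers, 10 averaged below 16 in Trim24-/- Rara+/- and 7 in Trim24-/-. Summed T and NK cell signals were 126 to 302 in Trim24-/- Rara+/- and 220.3 to 499 in Trim24-/-, and summed endothelial signals 3534 to 3964 and 2277 to 3493. Of 20 macrophage markers 13 were negative, 3 lower and 2 higher at an unadjusted p under 0.05, with summed signals of 9089.6 to 14048 and 9439.6 to 16579. The part of these markers in the interferon difference was not tested. Tap1 was the called member of 12 in the MHC class I list, at -1.52 ± 0.23. Oas3 was below 16 on all 8 Trim24-/- Rara+/- and WT arrays, at 4.70 to 7.25 and 3.02 to 6.85. Other immune genes called lower were Trim21, an antibody receptor and ubiquitin ligase, Ms4a4b, a T cell membrane protein, and Mlkl, which executes necroptosis, with changes from WT of -0.15, -0.10 and -0.30 that were not called. Ms4a4b averaged below 16 in WT and in Trim24-/- Rara+/-, at 11.7 and 9.57.

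Of the 26 genes called in the direct test, H1f2, Ehd3, Noct, Slc66a2, Slc49a4 and Il1r1 also had Trim24-/- Rara+/- arrays that did not overlap WT, with no call against WT. Over all genes, 4.62% did not overlap. The direct test picked the 26 by the same Trim24-/- Rara+/- arrays, so their separation from WT is not independent of that choice. H1f2, a linker histone, read 430.3, 392.97, 518 and 696 in WT, 271, 242, 198 and 240.3 in Trim24-/- Rara+/- and 642, 773, 593 and 579.6 in Trim24-/-, so Trim24-/- Rara+/- lay below both other groups. Its estimates were -1.02 ± 0.17 against WT (limma, adjusted p = 0.0631, not called) and -1.38 ± 0.17 against Trim24-/- (adjusted p = 0.0193, called), and the first was also called without WT animal 44 or Trim24-/- animal 6. Ehd3, an endocytic protein of sinusoidal endothelium named here after its values were seen, averaged 462 ± 118 in WT, 862 ± 91.0 in Trim24-/- Rara+/- and 393.21 ± 65.2 in Trim24-/- (SD, n = 4). It was 0.90 higher than WT by estimate (adjusted p = 0.104, called without WT animal 44) and 1.11 higher than Trim24-/- (adjusted p = 0.0275). Noct, a rhythmic nuclease, read 595, 691, 779 and 573, 818, 826, 903 and 864 and 262, 468, 457 and 391 in WT, Trim24-/- Rara+/- and Trim24-/-. Noct was called in the direct test, at 1.11 ± 0.16 (adjusted p = 0.0275), with 0.37 against WT (adjusted p = 0.657). Slc66a2 was -0.57 against WT and -0.90 against Trim24-/-, Slc49a4 0.48 and 0.79, and Il1r1, the interleukin-1 receptor, 0.43 and 1.15 (adjusted p against WT of 0.280, 0.335 and 0.660).

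The remaining genes called in the direct test overlapped WT and had no call against it. Gas6, a ligand of the receptors that clear dying cells, averaged 188 ± 37.7 in WT, 186 ± 19.5 in Trim24-/- Rara+/- and 375 ± 31.0 in Trim24-/- livers (SD, n = 4; direct difference -0.96 ± 0.13, limma, adjusted p = 0.0265). The Trim24-/- Rara+/- and WT means of Gas6 differed by less than either SD. Dck, which salvages deoxynucleosides, Myrf, a membrane-bound transcription factor, Uap1l1, a UDP-sugar pyrophosphorylase-like gene, and Phlda2 were lower than in Trim24-/-, by -0.92, -0.98, -1.21 and -0.54, with Phlda2 below 16 in each group mean. Ctif, a translation factor, was higher, by 0.73, and had 0.29 against WT.

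Fatty acid oxidation genes gave no call against WT. Of 25 measured members 1 was higher and 1 lower at an unadjusted p under 0.05, and the median was 0.06, with -0.22 and 3 called lower in Trim24-/-. Cyp4a31, an omega-hydroxylase under PPARa control, read 323, 540.3, 631 and 305 in WT, 1319.8, 1244, 1194 and 1299 in Trim24-/- Rara+/- and 636, 292, 569.6 and 598 in Trim24-/- livers, so Trim24-/- Rara+/- was above both. Its change was 1.52 ± 0.26 against WT and 1.30 ± 0.26 against Trim24-/- (limma, adjusted p = 0.0711 and 0.0732), neither called, though the first was called without Trim24-/- animal 6. Cyp4a14, another such hydroxylase, read 4856 to 5633 in WT, 5589 to 6269.5 in Trim24-/- Rara+/- and 2284 to 3475 in Trim24-/-. Acot1, a cytosolic acyl-CoA thioesterase, read 571 to 1021, 697 to 1052 and 119.6 to 369. Both had Trim24-/- Rara+/- arrays clear of Trim24-/- and overlapping WT, and both were called in the direct test, at 0.97 ± 0.13 and 1.88 ± 0.29 (adjusted p = 0.0226 and 0.0275). Acadm, medium-chain acyl-CoA dehydrogenase, had -0.22 against WT (unadjusted p = 0.0428).

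Lipid synthesis genes had no call among 20 measured, and 3 were lower at an unadjusted p under 0.05. Srebf1, the transcription factor that drives fatty acid synthesis, read 1996, 921, 997 and 2103 in WT, 908, 777, 586 and 889 in Trim24-/- Rara+/- and 1843, 1787, 1841 and 1455 in Trim24-/-. The Trim24-/- Rara+/- arrays were below every other array of the 3 groups, with estimates of -0.84 ± 0.26 against WT (limma, adjusted p = 0.421) and -1.13 ± 0.26 against Trim24-/- (adjusted p = 0.0993), neither called. Pnpla3, a lipid droplet hydrolase, had -0.68 and Fasn, fatty acid synthase, -0.57. WT was spread widely, from 959.7 to 3022 for Fasn, against 927 to 1118 in Trim24-/- Rara+/-.

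Beyond the 10 called genes, the next 15 by unadjusted p among genes whose arrays did not overlap had adjusted p from 0.0544 to 0.104 in limma, 10 higher and 5 lower. Apart from Olfm1, H1f2, Cyp2d9 and Cyp4a31, they included Gstp1, a glutathione transferase, at 5218 to 7204 in WT and 9495 to 11216 in Trim24-/- Rara+/- (change 0.75). Furin, a proprotein convertase, read 317 to 376 in WT and 465.7 to 678 in Trim24-/- Rara+/- (0.65), and Rpp40, an RNase P subunit, read 72.8 to 83.1 and 157 to 217 (1.09). Lama3, a laminin chain (1.15), Gabra3, a GABA receptor subunit (0.86), Ap4b1, an adaptor subunit (0.61), and Zfp982, a zinc finger gene (0.71), had positive estimates, Zfp982 below 16 on all 8 arrays. Mn1, a transcriptional co-regulator (-1.02), Mkx, a homeobox gene (-0.70), Steap3, a ferrireductase (-0.62), and Nrsn2 (-0.61, below 16 on all 8 arrays) had negative ones. None of these passed the main test, which fitted the 12 arrays at 5 weeks. With all 22 arrays in the fit, Olfm1, Cyp2d9, Cyp4a31, Gstp1, Rpp40, Lama3, Gabra3, Mn1, Mkx and Nrsn2 were called. With array weights, Olfm1, Cyp4a31, Gabra3, Gstp1, Cyp2d9, Mn1, Rpp40 and H1f2 were called. Leaving out 1 array gave calls against WT for some of the 15: Olfm1, Gabra3, Zfp982, Cyp4a31, Mkx, Gstp1 and H1f2 without Trim24-/- animal 6, Rpp40, Olfm1, Mn1, Gabra3 and Ap4b1 without Trim24-/- animal 37, and Lama3 without Trim24-/- animal 1.

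Markers of other liver cell types had no called member, and in bulk tissue fewer cells of a type and less RNA per cell cannot be told apart. Among the 20 markers of macrophages and Kupffer cells, 17 had positive estimates (median 0.16), where 44.8% of all genes did, and their summed signal was 7233 to 13297 in WT and 9089.6 to 14048 in Trim24-/- Rara+/-, none of the 20 averaging below 16. The macrophage median was -0.03 without Trim24-/- Rara+/- animal 73, so leaving out that array turned its direction. Leaving out WT animal 45 gave 0.04 and WT animal 90 gave 0.33. Marco, a scavenger receptor (0.93), and Cd5l, a secreted macrophage protein (0.87), had unadjusted p of 0.00496 and 0.00838. All 16 endothelial markers had positive estimates, with a median of 0.12 and a highest of 0.50, and summed signals of 2782 to 3683 and 3534 to 3964. Stellate and matrix markers had a median of 0.17 over 19, with 15 positive and 4 negative estimates. At an unadjusted p under 0.05, 3 were higher and 0 lower. Their mean log2 level per array was 7.36 to 7.48 in WT and 7.60 to 7.69 in Trim24-/- Rara+/-, without overlap. Among them Lum, a matrix proteoglycan, read 121 to 286 in WT and 251 to 505 in Trim24-/- Rara+/- (0.86, adjusted p = 0.458 in limma).

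Lymphocyte and neutrophil markers were mostly dim. Of 15 T and NK cell markers 12 averaged below 16 in WT and 10 in Trim24-/- Rara+/-, with a median change of 0.03 and summed signals of 172 to 192 and 126 to 302. Of 9 B cell markers 5 averaged below 16 in each group (median 0.02), and of 9 neutrophil markers 5 did in each. All 9 neutrophil estimates were negative (median -0.20), with summed signals of 94.0 to 306 in WT and 71.2 to 309.5 in Trim24-/- Rara+/-, and Mpo, myeloperoxidase, had an unadjusted p of 0.0423 at -0.33. Jchain, the joining chain of secreted antibodies, had 0.56 and Ighm, the IgM heavy chain, 0.92, neither called. The 11 hepatocyte markers had a median of -0.11. Animal 73 had the highest mean log2 level in Trim24-/- Rara+/- for macrophage (8.86), neutrophil (5.45) and T and NK cell (5.09) markers, as it had for interferon-stimulated genes. The part of these markers in the interferon values was not tested.

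**Figure D5:**
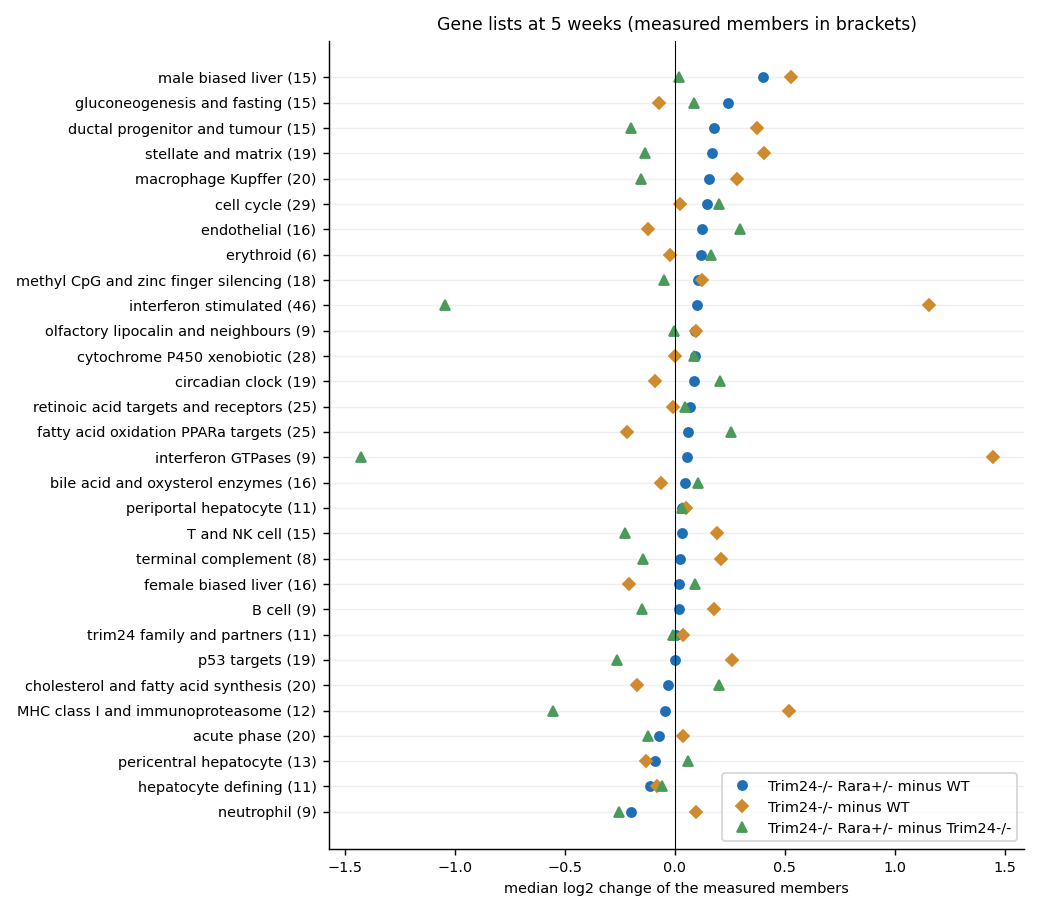
Median log2 change of the measured members of 30 gene lists (y axis, measured members in brackets; x axis, log2) for Trim24-/- Rara+/- minus WT (blue circles), Trim24-/- minus WT (orange diamonds) and Trim24-/- Rara+/- minus Trim24-/- (green triangles) at 5 weeks; the first pair share the WT arrays. The blue medians run from -0.20 for neutrophil markers to 0.40 for the male-biased list, and the interferon-stimulated and GTPase lists have orange medians of 1.15 and 1.45.

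The same genes were read in other animals at 14 weeks, where no Trim24-/- Rara+/- group was studied and 44 genes (0.242%) were called between Trim24-/- and WT. Xist read 19.4 to 34.7 in WT and 13.4 to 44.5 in Trim24-/- there, and Eif2s3y 245 to 344 and 263 to 306, the opposite of the 5-week arrays, so age and sex cannot be told apart when they are set beside the 5-week values. Mbd1 read 745 ± 271 in WT and 3977 ± 1013 in Trim24-/- (SD, n = 5), Cfap53 5.06 ± 1.99 and 1614 ± 556, and Obp2a 94.0 ± 80.4 and 3790.4 ± 529.8, all called in limma (adjusted p = 9.14e-04, 1.14e-07 and 6.02e-05). Bmyc (1.41), Cyp4v3 (0.98) and Cyp2u1 (1.05) were called higher there too. Cyp7b1 was not, at 3569 ± 1583 in WT and 4591 ± 665 in Trim24-/- (change 0.53, adjusted p = 0.753), and WT livers ranged from 1081 to 4894. C6 was 1385 ± 295 and 1706 ± 303 (0.30, adjusted p = 0.696), and its WT level at 14 weeks was above the Trim24-/- Rara+/- level at 5 weeks. Zfp445 had 0.65 (adjusted p = 0.0897) and Acyp1 -0.01 (adjusted p = 0.995).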

How the data were processed

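For 45101 probe sets on 22 arrays the authors deposited signal intensity values, linear and not logged. Per the labels' protocols, frozen liver gave column-purified RNA, of which 100 ng was amplified in 2 rounds and biotin-labelled. The signal software was not given in the sources used here; with 2% trimmed at each end, every array's mean was about 100, so the values had been scaled. In the platform annotation 34958 probe sets have 1 symbol, 932 several and 9211 none listed; each of the 18194 genes was represented by its brightest probe set, judged by the average of all 22 arrays.

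The log2 of signal plus 16 was fitted in limma 3.58.1 with empirical Bayes moderation (R 4.3.3), 12 arrays at 5 weeks in 1 fit without covariates and 10 at 14 weeks in another, with Benjamini-Hochberg adjustment over all genes. The number of arrays limits precision: residual degrees of freedom were 9 at 5 weeks and the median standard error 0.15. The code was tested on simulated data. Named genes were Trim24, Rara and sex-linked genes, all called genes, the next 15 whose groups did not overlap, up to 4 members of each list by unadjusted p, 5 of each interferon and fatty acid oxidation list by the direct test, and nearest neighbours of called and targeted genes; others are named as list members, as called in the direct test or as chosen after their values were seen. The 31 lists hold 581 entries, 508 of them measured. The comparison, lists and rules were chosen with earlier results of these data known. Gene order and promoters came from RefSeq tables of GRCm38.p6. Alternatives were other pseudocounts, scalings, probe set rules, array sets and fits, and each array left out in turn. Figures were drawn with matplotlib 3.10.9.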

Additional observations from a re-analysis of the deposited data

Results flagged for a closer look

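Among 38 sets of 4 arrays examined (a gene or a list in 1 group at 5 weeks), 3 had 1 array far from the other 3, where chance gives about 1 in 20. Trim24 signal in Trim24-/- Rara+/- animal 82 was 399.8, below 460.7 to 473 in the other 3. C6 in WT animal 90 was 201, above 69.2 to 75.0 in the other WT animals; the change of C6 was 2.77 with that animal and 3.10 without it, called in limma both ways (adjusted p = 2.63e-04 and 1.00e-07). The mean log2 level of the interferon-stimulated list in Trim24-/- Rara+/- animal 73 was 7.44, above 6.90 to 6.96 in the other 3, and the median change of the list from WT was 0.10 with that animal and -0.04 without it.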

How the results depend on the processing

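Under 25 alternatives, Mbd1, Cyp7b1, Cfap53, C6 and Zfp445 kept their calls in limma in all 25. No called gene's change turned direction, but many settings could not turn it. Those that altered only the Trim24-/- arrays, the estimate of spread or the genes tested left the changes as they were. Leaving out 1 WT or Trim24-/- Rara+/- array could not turn it either, because the groups did not overlap. Cyp4v3 lost its call in 1 (adjusted p = 0.0779 with Trim24-/- Rara+/- animals 54, 66 and 82 averaged), Bmyc in 11, Obp2a in 12, Cyp2u1 in 13 and Acyp1 in 20, with largest adjusted p of 0.309, 0.363, 0.484 and 0.759. The count of 10 called genes was 19 over genes above the median level, 16 with every probe set on its own, 18 with array weights, 23 when only the 8 arrays compared were fitted and 31 with all 22. It was 5 with animals 54, 66 and 82 averaged, 28 without both WT animal 90 and Trim24-/- animal 6, and 4 (C6, Cyp4v3, Cyp7b1 and Zfp445) without genes near Trim24, Rara and the clustered called genes, which removes Mbd1, Cfap53, Obp2a and Bmyc by construction. Leaving out 1 array gave 6 to 22 calls: 6 without WT animal 45, Trim24-/- animal 8 or Trim24-/- Rara+/- animal 54 or 66, 21 without Trim24-/- animal 37 and 22 without Trim24-/- animal 6. Quantile normalisation gave 14 higher and 0 lower, and centring each array 9 and 0. The median of the interferon-stimulated list ran from -0.04 to 0.16 and that of the GTPases from -0.01 to 0.20; with 1 WT or Trim24-/- Rara+/- array left out, the MHC class I median ran from -0.05 to 0.04 and the retinoid median from 0.03 to 0.11. No paired analysis was possible because the groups share no replicate numbers. Changes of genes below the pseudocount in WT depend on it, and how far the order of signals under 16 can be trusted was not tested. Apart from the settings that change the samples or genes by construction, the cause of the moves was not tested.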

Other observations

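For some liver genes the WT arrays were uneven. Sult3a1, a female-biased sulfotransferase, read 280.0, 20.8, 114 and 6827 in WT and 2736, 2503, 3518 and 2776 in Trim24-/- Rara+/- livers, a log2 change of 3.2 ± 1.12 (limma, adjusted p = 0.522). Without WT animal 90, the highest WT array, Sult3a1 was called higher in Trim24-/- Rara+/-. Cyp2b10, a xenobiotic-induced hydroxylase, read 40.6, 505, 822 and 100.4, 639, 706, 859 and 666 and 118, 77.3, 109 and 347 in WT, Trim24-/- Rara+/- and Trim24-/-, with 1.65 against WT and 2.24 against Trim24-/- (adjusted p = 0.637 and 0.215). In both genes the 4 Trim24-/- Rara+/- animals lay close together and the WT animals did not. Of 16 female-biased genes none was called (median 0.02), and 8 estimates were positive and 8 negative. At an unadjusted p under 0.05, 3 were higher and 0 lower, where 3.11% of all genes were higher. The mean log2 level of this list per array was 8.24 to 8.84 in WT and 9.05 to 9.24 in Trim24-/- Rara+/-, without overlap. In Trim24-/- livers it was 7.81 to 9.16. Ornithine aminotransferase, Oat, a pericentral enzyme, read 3689, 6969, 6849.9 and 4592 in WT and 2587, 2781, 3798 and 2598 in Trim24-/- Rara+/- (-0.87, adjusted p = 0.180), the lowest estimate of 13 pericentral markers.

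Red cell and clock genes gave other values without a call. Alas2, the erythroid enzyme that starts haem synthesis, read 183, 219, 337 and 101 in WT, 388, 389, 400.3 and 423 in Trim24-/- Rara+/- and 311, 202, 211 and 134 in Trim24-/- (0.99 against WT, limma, adjusted p = 0.364), and Trim24-/- Rara+/- lay above the other groups. Ciart, a clock repressor, read 133, 165, 161 and 84.6 and 215, 193, 215 and 209 in WT and Trim24-/- Rara+/- (0.60, adjusted p = 0.462), and the 19 clock genes had a median of 0.09. The acute-phase gene Orm2 read 309, 492, 501 and 548 and 179, 149, 341 and 166 (-1.13, adjusted p = 0.458), with animal 73 inside the WT range, and 20 acute-phase genes had a median of -0.07. The stress gene Gadd45a read 99.5, 45.7, 34.6 and 47.2 and 25.0, 26.1, 26.1 and 29.9 (-0.69, adjusted p = 0.579). Medians were 0.00 for 19 p53 targets, 0.14 for 29 cell cycle genes, 0.24 for 15 fasting genes, 0.03 for 11 periportal genes, -0.09 for 13 pericentral genes, 0.18 for 15 ductal and progenitor genes, 0.12 for 6 erythroid genes and 0.09 for 9 olfactory lipocalin genes and neighbours.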
